A study of Homo sapiens with 9 samples.

Results

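The loci of 8 immediate-early and AP-1 genes were open in every library and differed little between treatments. Open chromatin was read by ATAC-seq, which maps where a transposase can insert into DNA, in the human prostate cancer line 22Rv1 after gene editing, so that the cells made SF3B1, a core splicing protein, with the C1111S substitution. All 9 libraries came from this edited line. Groups of 3 libraries each had been exposed for 3 h to DMSO (0.1%, the vehicle), to WX-02-23 (20 µM) or to WX-02-43 (20 µM), compounds called stereoprobes in the labels. The series concerns covalent molecules that act on FOXA1, a forkhead pioneer factor of prostate epithelium, and the comparisons ask whether either compound moved accessibility at these loci. The labels do not say whether libraries of a group came from separate cultures or whether the edited line is a single clone, so the spread between libraries may be technical.

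Members are merged open regions that overlap a fixed hg19 window around FOS, FOSB, FOSL1, FOSL2, JUN, JUNB, ATF3 or EGR1. The 9 deposited peak lists were joined wherever peaks overlapped by 1 bp or more. A region counts as held by a library if any peak of that library overlaps it. This gave 100 member regions of 128994 in all. The windows are positions and use no measured value, and the last FOSB region (46009508 to 46010326) crosses its window's edge. The windows may also hold parts of neighbouring genes (ERCC1 and RTN2 flank FOSB, and BABAM2 and PLB1 flank FOSL2, by gene order in GRCh38.p14). No annotation of hg19 was used here, so this was not checked. A region is therefore named by its window and its number along the chromosome, without a claim on which gene it serves.

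Immediate-early genes are switched on within minutes of a stimulus, without new protein synthesis, and their promoters are often held open beforehand. FOS, FOSB, FOSL1 and FOSL2 encode the Fos proteins, which pair with the Jun proteins (JUN and JUNB here) to form AP-1, a leucine zipper dimer that binds TGANTCA sites. ATF3 encodes a stress-induced leucine zipper protein that pairs with Jun proteins, and EGR1 encodes a zinc finger factor induced through serum response factor, which binds CArG boxes. In prostate cells AP-1 sites and forkhead sites are both common features of enhancers.

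Promoter sequences from RefSeq (GRCh38.p14) matched 7 of the 8 genes by symbol, FOSL1 being the other, with 8 entries in all because ATF3 had a pair. Each entry runs from 250 bases before to 50 after the gene's start. They were searched for exact matches to 7 short motifs, and they were not placed on the hg19 peaks. Both strands were searched for TGANTCA (AP-1), TGACGTCA (CRE), the CArG box, GCGTGGGCG (EGR), TGTTTAC and TGTTTGC (forkhead) and CCGGAAG (ETS), which do not share a match here. EGR1 held a pair of CArG boxes, at -105 to -96 and -83 to -74 counted from the start, an element present in 1.29% of 35116 promoters. JUNB held TGTTTAC at -166 to -160, found in 3.42% of promoters. FOSL2 held an AP-1 site, TGACTCA, at 5 to 11 after the start, and 7.71% of promoters have such a site. No other entry of these genes matched any of the 7 motifs, JUN included, which says only that these letters are absent from the window. Near variants of the motifs were not searched, so a site of the same factor may still be present. The sequences are given 5′ to 3′ on the gene's strand with motif matches in capitals, the first 3 covering the 250 bases before the start and the last the 30 bases around the FOSL2 site.
EGR1, chr5:138465229-138465478, plus strand: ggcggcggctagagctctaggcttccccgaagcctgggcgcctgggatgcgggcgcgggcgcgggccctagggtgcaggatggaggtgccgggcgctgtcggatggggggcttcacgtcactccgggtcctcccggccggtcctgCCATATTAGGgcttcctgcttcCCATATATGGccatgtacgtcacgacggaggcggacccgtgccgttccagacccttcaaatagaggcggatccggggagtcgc
JUNB, chr19:12791236-12791485, plus strand: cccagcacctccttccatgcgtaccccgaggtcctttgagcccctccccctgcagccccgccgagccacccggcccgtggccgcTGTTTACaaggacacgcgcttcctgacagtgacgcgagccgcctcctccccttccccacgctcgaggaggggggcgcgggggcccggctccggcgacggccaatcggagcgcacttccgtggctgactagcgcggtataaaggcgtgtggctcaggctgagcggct
JUN, chr1:58784048-58784297, minus strand: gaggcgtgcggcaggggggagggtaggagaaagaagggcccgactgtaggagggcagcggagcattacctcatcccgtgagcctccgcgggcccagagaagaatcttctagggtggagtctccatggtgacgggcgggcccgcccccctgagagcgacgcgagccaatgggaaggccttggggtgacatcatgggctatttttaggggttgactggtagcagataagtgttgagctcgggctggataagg
FOSL2, chr2:28392851-28392880, plus strand: tgccattgtagTGACTCAtctcgggcagag

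The lists held 81962 to 105132 peaks per library on chromosomes 1 to 22 and X, of which 74 to 91 lay in the 8 windows. By replicate, the windows held 84, 87 and 91 peaks in DMSO, 85, 84 and 80 with WX-02-23 and 74, 78 and 84 with WX-02-43. As a share of the list, these were 0.0901% to 0.102% for DMSO, 0.0809% to 0.0910% for WX-02-23 and 0.0825% to 0.0899% for WX-02-43, so the WX-02-43 shares lay just below those of DMSO and the WX-02-23 shares overlapped both. The length of the lists differed within every group.

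The 8 windows were denser in open regions than the chromosomes as a whole. They held 11.5 regions per 100 kb over 870 kb, against 4.38 per 100 kb from the first to the last region of each chromosome. By window the density ran from 6.50 per 100 kb (JUN) to 22.9 (FOSB). The windows were placed at chosen genes and other genes were not measured, so the density is not shown to be particular to these loci. All 9 libraries shared 62 of the 100 regions (62.0%), against 46.2% over the series, and 12 were held by 1 library alone, against 16.5% over the series. The 62 shared regions were wider than shared regions at large, with a median width of 814 bp against 621 bp. Their median fold enrichment over the local background of the same library was lower, at 7.19 against 8.80. Fold here is the deposited value at a peak's summit.

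**Figure D1:**
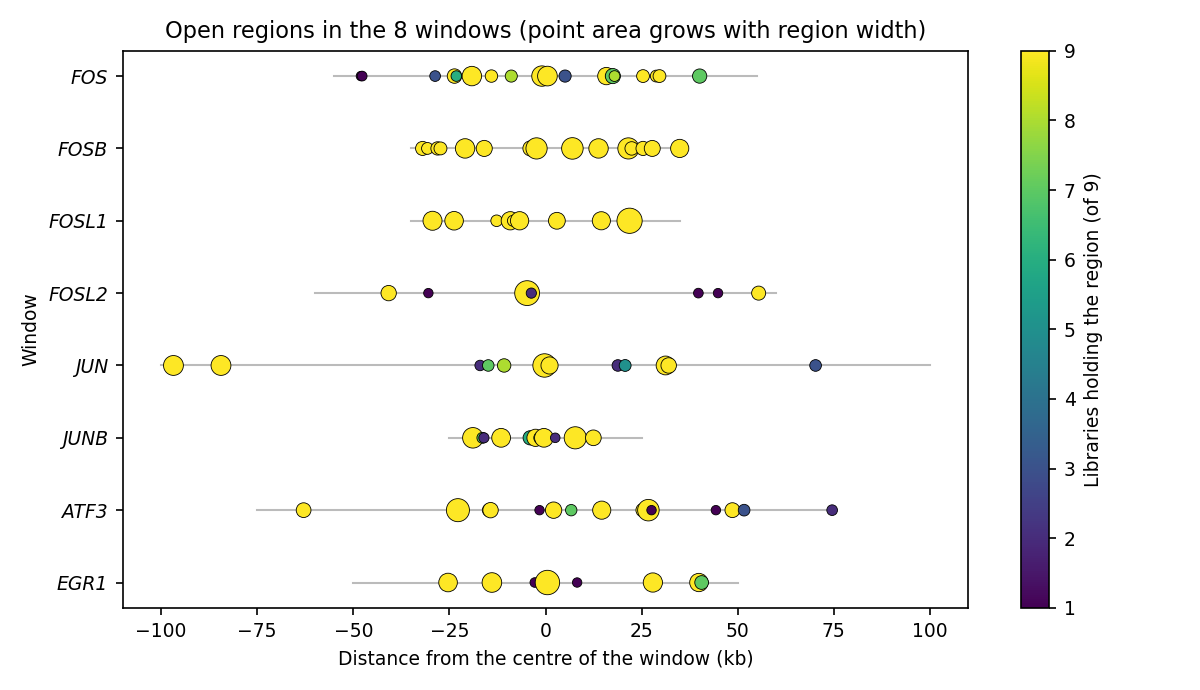
Open regions of the 8 windows by distance from the window's centre (kb), each point a merged region whose area grows with its width and whose colour gives the number of libraries holding it (1 to 9). Every window has regions held by all 9 libraries, and the FOSB and FOSL1 windows consist almost wholly of them (15 of 16 and 9 of 9).

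The windows differed in how much of their open chromatin was constant. FOSL1 had all 9 of its regions in all 9 libraries and FOSB 15 of 16. The FOS window held the most regions (19, of which 9 were in all libraries). In the JUN window 6 of 13 regions were in all libraries, in JUNB 6 of 11, in ATF3 9 of 15 and in EGR1 5 of 9. FOSL2 had the lowest share, with 3 of 8, and 4 of its regions came from 1 library each. Regions seen in 1 library were narrow, 150 to 168 bp, with folds of 2.31 to 5.11 and a median of 12 fragments stacked at the summit, against a median of 59 in regions held by all 9. Fragments at a summit were solved from the deposited fold and p-value, and they are the depth behind each fold. MACS2 settings are not given, so the units stacked may be reads in place of whole fragments.

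The deepest region of each window is described next. It is the region with the highest median fragment count, picked after its values were seen, and in none of the 8 windows was it the region with the highest fold. In the JUN window it was the 1420 bp region on chromosome 1 from 59249045 to 59250464, with 129 to 157 fragments. DMSO libraries had 9.06, 8.55 and 8.24 fold there, WX-02-23 libraries 7.84, 8.03 and 8.80, and WX-02-43 libraries 8.82, 7.48 and 7.76. All 3 groups overlap. EGR1 had its deepest region on chromosome 5 from 137799725 to 137801277 (1553 bp, 123 to 154 fragments), where the means were 7.48 ± 0.29 for DMSO, 7.26 ± 0.30 for WX-02-23 and 7.06 ± 0.12 for WX-02-43 (SD over 3 libraries). In the ATF3 window, the region from 212781178 to 212782362 on chromosome 1 (1185 bp, 125 to 147 fragments) stood at 7.26 ± 0.074, 7.02 ± 0.73 and 6.75 ± 0.19 in the same order.

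Among the Fos genes, the deepest region of the FOS window lay on chromosome 14 from 75725368 to 75726318, with 118 to 141 fragments and mean folds of 9.94 ± 0.41 for DMSO, 10.6 ± 0.62 for WX-02-23 and 10.1 ± 1.0 for WX-02-43 (SD over 3 libraries). FOSL2 had a 1608 bp region on chromosome 2 from 28614415 to 28616022 with 86 to 127 fragments, at 6.69 ± 0.080, 6.73 ± 0.59 and 6.97 ± 0.44 in that order. The deepest regions of FOSB (13.6 ± 0.20, 14 ± 0.65 and 13.4 ± 0.54), FOSL1 (6.52 ± 0.22, 6.60 ± 0.20 and 6.42 ± 0.37) and JUNB (4.88 ± 0.19, 5.20 ± 0.29 and 4.87 ± 0.47) were similar between groups. In none of these 8 regions were the groups of any pair apart once each fold was divided by the median of its library.

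The strongest region of each window by fold, over all 9 libraries, was fixed by rule as its lead region. That rule uses the folds of the treated libraries too, so being a lead region is not independent of the comparisons below. FOSB had the highest, on chromosome 19 from 45988324 to 45989269, followed by JUN from 59165080 to 59166073 on chromosome 1 and FOSL1 from 65667619 to 65668304 on chromosome 11. Median folds over the 9 libraries were 15.1, 14.3 and 12.4, then 11.7 for EGR1, 11.6 for FOS, 11.1 for ATF3, 8.27 for FOSL2 and 7.95 for JUNB. Neighbours in this order overlapped in single libraries: FOSB and JUN, for example, ranged from 13.1 to 16.4 and from 13.6 to 15.8. Such an order compares enrichment over local background, not the number of open cells.

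At the FOS lead region (chromosome 14 from 75760466 to 75761202), DMSO libraries had 11.4, 11.6 and 11.9 fold, WX-02-23 libraries 11.6, 11.5 and 11.8, and WX-02-43 libraries 11.6, 12.3 and 10.5. No group stood apart there. At JUN, the gene of a partner of the Fos proteins, DMSO libraries had 14.4, 14.4 and 15.6 fold, WX-02-23 libraries 14.3, 13.7 and 15.8 and WX-02-43 libraries 14.3, 13.6 and 13.8. These undivided folds were all lower with WX-02-43 than in DMSO, by a narrow gap. EGR1, on chromosome 5 from 137827465 to 137828391, had means of 11.6 ± 0.62 for DMSO, 11.8 ± 0.93 for WX-02-23 and 11.9 ± 0.78 for WX-02-43 (SD over 3 libraries). JUNB, on chromosome 19 from 12885575 to 12886642, averaged 8.18 ± 0.22, 7.93 ± 0.77 and 7.46 ± 0.42, again with WX-02-43 (7.11 to 7.92) below DMSO (7.95 to 8.38). FOSL1 averaged 12.7 ± 1.9, 13 ± 0.71 and 12.4 ± 0.51. Neither JUN nor JUNB stood apart once each fold was divided by its library's median. Those medians were 8.40, 9.14 and 9.52 in DMSO libraries and 8.22, 8.60 and 8.68 in WX-02-43 libraries.

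**Figure D2:**
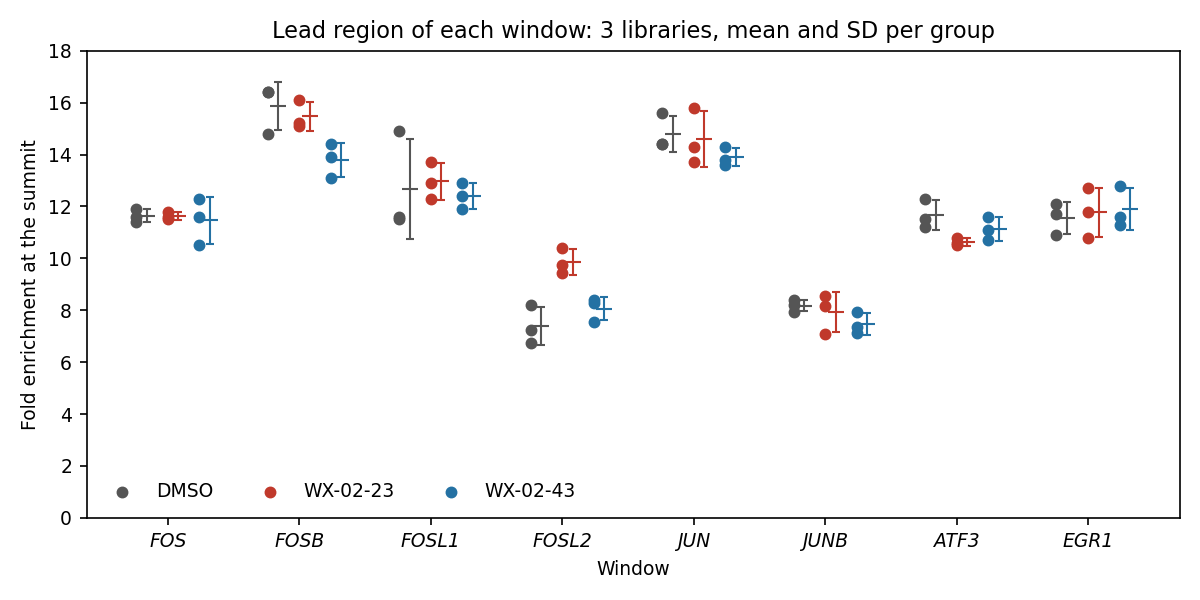
Fold enrichment at the summit of the lead region of each window; points are single libraries, bars the mean and SD of 3 libraries per group. FOS, FOSL1 and EGR1 overlap in all pairs of groups. In these undivided folds JUN and JUNB are narrowly lower with WX-02-43 than in DMSO. FOSB is lower with WX-02-43 (13.1 to 14.4) than in DMSO (14.8 to 16.4) or with WX-02-23 (15.1 to 16.1). ATF3 is lower with WX-02-23 (10.5 to 10.8) than in DMSO (11.2 to 12.3). FOSL2 is higher with WX-02-23 (9.44 to 10.4) than in DMSO (6.74 to 8.20) or with WX-02-43 (7.54 to 8.38).

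For comparisons, each fold was divided by the median of its library over the 59637 regions held by all 9, since that median ran from 8.22 to 9.52 between libraries. This relative fold was compared on the log2 scale among regions held by all 6 libraries of a pair. A region was called higher or lower where every library of one group lay beyond every library of the other. For 3 against 3 this is the same as the smallest two-sided exact permutation p, 0.1, and no test of single regions was run. The range of the 9 differences between single libraries of a pair, given below in brackets, is the 90% interval that this exact test leaves. A region was called gained where all 3 libraries of the first group and none of the second held it, and lost in the opposite case.

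Of the 100 regions, 16 met any of these calls in any pair of groups, beside 19.8% of all 128994 regions. By presence 2 were called, beside 3.85%, and by relative fold 14, beside 16%. A call by relative fold needs a region held by all 6 libraries of a pair. All 9 libraries held 62.0% of members against 46.2% of all regions, so these shares are not like for like. Shares among the regions that could be called are given for each pair below. The JUN window had 5 of them, ATF3 4, FOSB 3, and FOS, FOSL1, FOSL2 and JUNB 1 each. EGR1 had none. No member differed by 0.5 or more on the log2 scale in any pair.

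With WX-02-23 the FOSL2 lead region was higher than in DMSO, and single regions at JUN, FOS, ATF3 and FOSB were lower. In all, 1 of 66 member regions was higher, beside 7.24% of all regions, and 4 were lower, beside 8.47%. The median difference over the 66 was 0.011 on the log2 scale, from -0.479 to 0.411, and over all 62928 regions -0.005. Sizes of at least 0.5 occurred in 2.77% of all regions and in no member. Of the 100 members 1 was gained, beside 1.77% of all regions, and 1 was lost, beside 0.739%. In relative fold the shares of members called (1.52% higher and 6.06% lower) were below those of all regions. This did not hold under other settings. With undivided folds, 7 of the 66 were higher, a share above the 7.71% of all regions, and 5 were lower, beside 7.77%. With −log10 p in place of fold, 6 of the 66 were higher and 6 lower, shares slightly above the 8.57% and 9.06% of all regions.

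The region higher with WX-02-23 was the lead region of the window of FOSL2, the gene of the Fos-related protein Fra-2. It lay on chromosome 2 from 28675227 to 28675675, close to the upper edge of the window. Fold was 7.24, 6.74 and 8.20 in DMSO and 10.4, 9.75 and 9.44 in WX-02-23, with 21 to 27 and 26 to 36 fragments. Every WX-02-23 library exceeded every DMSO library, by 0.41 on the log2 scale in the mean (0.28 to 0.61). WX-02-43 lay between them at 8.27, 8.38 and 7.54, which was higher than DMSO by 0.21 (0.01 to 0.45) and lower than WX-02-23. The gap between WX-02-43 and DMSO did not stand in undivided folds or in −log10 p. The deepest FOSL2 region did not share this pattern (WX-02-23 minus DMSO, 0 on the log2 scale, from -0.18 to 0.20). The lead region was picked by folds that include the WX-02-23 libraries. In DMSO it overlapped the FOSL2 region from 28578922 to 28579477 (5.59, 7.76 and 8.52 fold).

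Among the lower regions the largest difference was in the JUN window, on chromosome 1 from 59281765 to 59282330. DMSO libraries had folds of 5.83, 5.84 and 6.35 there and WX-02-23 libraries 4.85, 4.32 and 3.87, a difference of -0.48 (-0.70 to -0.28). With WX-02-43 it was 5.21, 5.34 and 4.69, lower than DMSO by -0.16 (-0.36 to -0.01). Fragments at the summit overlapped between the groups: DMSO libraries had 40 to 53, WX-02-23 libraries 28 to 45 and WX-02-43 libraries 35 to 40. Its neighbour from 59280794 to 59281677 was not lower with either compound: with means of 10.8 ± 0.74 for DMSO, 11.1 ± 0.55 for WX-02-23 and 11.5 ± 0.27 for WX-02-43 (SD over 3 libraries), it differed by 0.04 (-0.14 to 0.22) for WX-02-23 and was called higher for WX-02-43, by 0.18, though not in undivided folds.

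The other lower regions with WX-02-23 differed little. FOS had one from 75721080 to 75721561 on chromosome 14, at 5.90 ± 0.20 in DMSO and 5.03 ± 0.46 in WX-02-23 (SD, n = 3 each), a difference of -0.24 (-0.54 to 0 after rounding). The ATF3 lead region, on chromosome 1 from 212731530 to 212732901, stood at 11.2, 12.3 and 11.5 in DMSO and 10.8, 10.6 and 10.5 in WX-02-23, a difference of -0.14 (-0.22 to -0.01). In the FOSB window the region from 46002470 to 46003080 on chromosome 19 differed by -0.10 (-0.16 to -0.03). That call was not met in undivided folds or with −log10 p in place of fold.

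The gained region lay in the JUN window on chromosome 1 from 59320123 to 59320404. It was held by all 3 WX-02-23 libraries, at 6.44, 5.99 and 5.24 fold with 10 to 14 fragments, and by no DMSO or WX-02-43 library. It met the same criterion at −log10 q of at least 5, with at least 50% of the region covered and in lists of equal length. The lost region lay in the ATF3 window on chromosome 1 from 212806527 to 212806808, at 4.09, 4.24 and 5.46 fold with 14 to 21 fragments in DMSO and no peak with either compound. It did not meet the criterion at −log10 q of at least 5 or in lists of equal length. Where no peak is listed, signal below the calling threshold may still have been present.

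**Figure D3:**
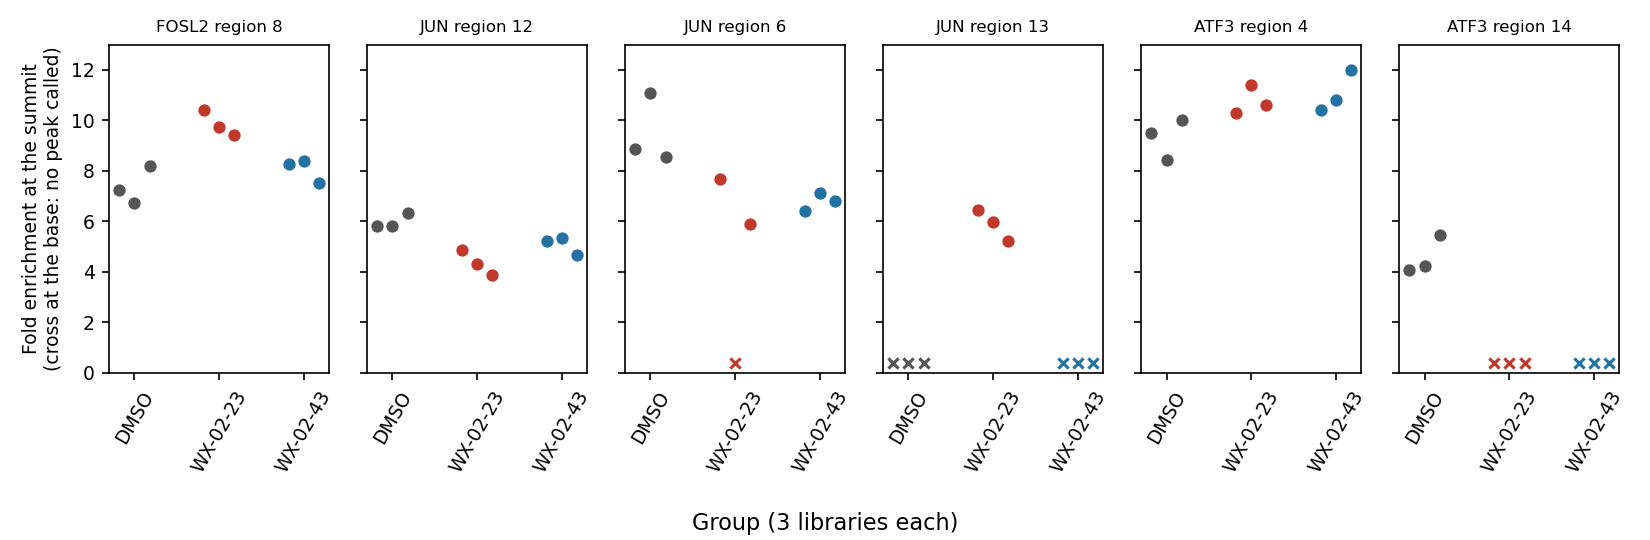
Fold enrichment by library for the 2 regions called by presence and the 4 called by relative fold with a mean difference of at least 0.3 on the log2 scale in any pair; crosses at the base mark libraries without a peak. FOSL2 region 8 is highest with WX-02-23 (9.44 to 10.4), JUN region 12 is lowest with it (3.87 to 4.85), and JUN region 13 is held by WX-02-23 libraries alone.

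With WX-02-43 an ATF3 region was higher than in DMSO (difference 0.34) and a JUN region was lower (difference -0.40) on the log2 scale. In all, WX-02-43 against DMSO gave 5 of 63 members higher, beside 6.71% of all regions, and 5 lower, beside 5.49%. No member was gained, beside 0.331%, and 1 was lost, beside 0.366%: the ATF3 region already described. The median difference was 0.043 on the log2 scale, from -0.395 to 0.335, and 0.017 over all regions. The split depended on the scaling: undivided folds gave 1 higher and 12 lower, where 2.33% and 12.2% of all regions were called. This comparison shares its DMSO libraries with the one before.

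The largest difference lay in the JUN window on chromosome 1 from 59239033 to 59239437. Fold was 8.88, 11.1 and 8.54 in DMSO and 6.40, 7.14 and 6.82 in WX-02-43, a difference of -0.40 (-0.65 to -0.11), with 20 to 25 and 15 to 19 fragments. It was not called with −log10 p in place of fold. WX-02-23 replicate 2 had no peak there, and replicates 1 and 3 had 7.69 and 5.88 fold, below all 3 DMSO libraries. The remaining lower regions were at ATF3 (chromosome 1 from 212803367 to 212803880, 8.94 ± 0.72 against 7.14 ± 0.80, a difference of -0.24), at FOSL1 (chromosome 11 from 65640792 to 65641647, 10.5 ± 0.41 against 8.78 ± 0.25, -0.17) and at the FOSB lead region (15.9 ± 0.92 against 13.8 ± 0.64, -0.12), besides the JUN region from 59281765 (SD, n = 3 each). The FOSB call, too, was not met with −log10 p in place of fold.

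Of the 5 higher regions the largest difference was at ATF3, on chromosome 1 from 212740428 to 212740987. DMSO libraries had 9.49, 8.45 and 10.0 fold there and WX-02-43 libraries 10.4, 10.8 and 12, a difference of 0.34 (0.16 to 0.58). This call also held in undivided folds. WX-02-23 libraries stood at 10.3, 11.4 and 10.6, above DMSO in undivided folds and not apart from it in relative fold (0.20, from -0.02 to 0.47). The other 4 higher regions were the FOSL2 region from 28675227, JUN regions from 59280794 (0.18) and from 59250693 to 59251410 (3.73 ± 0.16 against 3.88 ± 0.20, 0.14), and a JUNB region on chromosome 19 from 12904155 to 12905024 (4.27 ± 0.32 against 4.61 ± 0.33, 0.19; SD, n = 3 each). None of these 4 calls was met in undivided folds. At the JUN region from 59250693 the interval began at 0 after rounding and ran to 0.30, so the groups were barely apart.

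**Figure D4:**
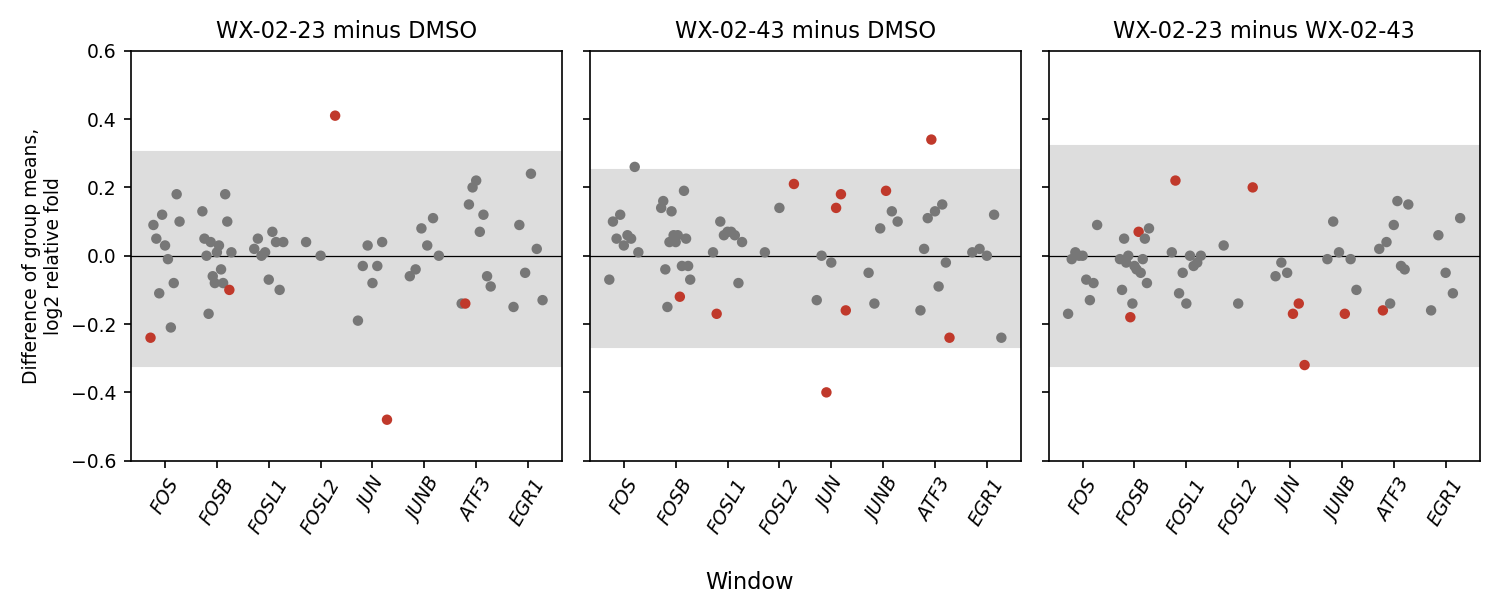
Difference of group means in log2 relative fold for each member region held by all 6 libraries of a pair, by window; red points are called higher or lower, and the grey band spans the 5th to 95th percentile of all regions. Most members lie inside the band in each panel, with FOSL2 at 0.41 and JUN at -0.48 outside it for WX-02-23 minus DMSO.

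WX-02-23 and WX-02-43 were compared at the same dose and time. Of 62 members, 3 were higher with WX-02-23, beside 7.63% of all regions, and 6 were lower, beside 10.6%. The JUN region from 59320123 was the 1 member gained, beside 1.43%, and none was lost, beside 0.806%. The median difference was -0.024 on the log2 scale, from -0.32 to 0.222. In undivided folds 5 members were higher and none lower, beside 16.8% and 4.55% of all regions, so the split turned with the scaling among the members and over all regions alike.

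The compounds differed most at the JUN region from 59281765, by -0.32 (-0.57 to -0.04), a call not met in undivided folds. Higher with WX-02-23 were FOSL1 from 65640792 (9.71, 10.4 and 12.8 against 8.50, 8.89 and 8.95, a difference of 0.22, from 0.02 to 0.46), FOSL2 from 28675227 (0.20, from 0.05 to 0.37) and the FOSB lead region (0.07, from 0.01 to 0.13). The other lower regions were at FOSB from 45958756 to 45959373 (-0.18), at JUN from 59250693 and 59280794 (-0.17 and -0.14), at JUNB from 12904155 (-0.17) and at the ATF3 lead region (-0.16), and none of these 5 was called in undivided folds. With −log10 p in place of fold, the calls between the compounds were not met at FOSL2, at the FOSB lead region, at JUN from 59281765 and 59280794, at JUNB and at the ATF3 lead region. At the lead regions of FOS, JUN, FOSL1, JUNB and EGR1 the compounds were not apart, with differences of -0.07 (-0.19 to 0.10), -0.02 (-0.17 to 0.14), -0.03 (-0.18 to 0.15), -0.01 (-0.30 to 0.24) and -0.11 (-0.30 to 0.12). These intervals do not show that the compounds act alike.

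Open bases per window overlapped between groups in most cases. In the FOS window, peaks covered 4935 to 7239 bp for DMSO, 5129 to 6548 bp for WX-02-23 and 4665 to 5877 bp for WX-02-43. JUN covered 5231 to 6086 bp, 5024 to 6473 bp and 4464 to 5325 bp in the same order. For covered bases the groups were apart in a pair of cases: FOSL2 covered 2332 to 2432 bp with WX-02-23 and 2437 to 2594 bp in DMSO, and ATF3 covered 5509 to 5930 bp with WX-02-23 and 4614 to 5072 bp with WX-02-43. For peak number they were apart in the ATF3 window alone, with 12 to 13 peaks in DMSO and 9 to 10 in WX-02-43. Among 21852 bins of 100 kb with a peak in all 9 libraries, covered bases were apart in 11.3% (WX-02-23 against DMSO), 6.53% (WX-02-43 against DMSO) and 13.2% (WX-02-23 against WX-02-43), and peak numbers in 5.24%, 2.45% and 5.05%. The windows were 50 to 200 kb long, so bins and windows are not like for like.

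The 38 regions not held by all libraries had no single layout. DMSO libraries were missing from 9 of them altogether, WX-02-23 libraries from 13 and WX-02-43 libraries from 18. All 3 DMSO libraries held 11 of them, all 3 WX-02-23 libraries 7 and all 3 WX-02-43 libraries 2. The same counts were not made over all partly held regions, so they show no difference between groups that is particular to these loci. Where 2 to 8 libraries held a region, the median was 21 fragments at the summit and folds ran from 2.35 to 11.1. Within groups, members held by 9 libraries had a lower median SD than all regions held by 9, though by little in DMSO. On the log2 scale it was 0.127, 0.109 and 0.095 in DMSO, WX-02-23 and WX-02-43, against 0.131, 0.124 and 0.126.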

How the data were processed

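ATAC-seq peak lists of 9 libraries were used, 1 per library. The submitters' processing notes name Bowtie2, MACS2 and the build hg19. For versions, MACS2 settings, the shift of reads, duplicates and a control, the entry is: not given in the sources used here. The authors' deposited lists give each peak a fold enrichment (a ratio over local background), a −log10 p, a −log10 q (2.00 or more) and a score, which repeats −log10 q and was not used. Fragments at the summit are the whole-number pileup that meets the deposited fold and −log10 p within 0.002 under the Poisson formula of MACS2, which 100.0% of summits in every list did. The commonest background was 1.00 to 1.41 fragments, and read totals were not analysed here. At most 0.116% of intervals were identical between lists. Where a library had several peaks in a region, the highest fold was taken. Folds of different lists were described, not tested. Coordinates of peaks are hg19, counted from 1. Named regions are each window's lead region, all gained or lost members, and up to 6 higher and 6 lower members per pair. The windows and lists were chosen with earlier results of these data known. The code for the calls was run on simulated data with known changes, which checks the code and lends no weight to the calls made here. Partner genes of AP-1 and cell type markers were not analysed, since no hg19 annotation was used here. Analysis used Python 3.11.15, numpy 2.4.6, pandas 2.3.3, scipy 1.17.1 and matplotlib 3.10.9. Samples with the same replicate number were not paired, as given with the other settings tried in the closing section.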

Additional observations from a re-analysis of the deposited data

How the results depend on the processing

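Of 54 counts under other settings, 31 were within 1.5 times the reported count. The share of all regions called under the same setting follows in brackets. Counts of a few regions move easily, and the cause was not tested unless stated. An equal count need not be the same region. In lists of equal length 1 member was lost against DMSO with WX-02-23 (1.12%) and 1 with WX-02-43 (0.411%), but not the ATF3 region. The 31 also include counts of 0 that stayed at 0. They include the choice of the peak with the highest −log10 q, which changed no count. At −log10 q of at least 5, lost members numbered 0 for WX-02-23 (0.843%) and 0 for WX-02-43 (0.422%) against DMSO, and gained members 2 for WX-02-23 against WX-02-43 (1.34%). Undivided folds gave 7 higher (7.71%) for WX-02-23 against DMSO, 1 higher (2.33%) and 12 lower (12.2%) for WX-02-43 against DMSO, and 5 higher (16.8%) and 0 lower (4.55%) for WX-02-23 against WX-02-43. With −log10 p in place of fold these were 6 higher (8.57%) for WX-02-23 against DMSO, 3 higher (6.82%) and 9 lower (5.75%) for WX-02-43 against DMSO, and 3 lower (9.82%) for WX-02-23 against WX-02-43. A minimum difference of 0.5 left 0 higher and 0 lower in all 3 pairs, since no member reached it. The fragments at each summit, not the total reads, are the only depth known here.

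The replicate block, which asks only that same-numbered libraries differ in one direction, gave more calls by construction: 8 higher and 10 lower for WX-02-23 against DMSO (13.6% and 15.4% of all regions), 14 and 9 for WX-02-43 against DMSO (18.4% and 13.1%), and 11 lower for WX-02-23 against WX-02-43 (18.3%). Same-numbered libraries did not deviate together in every pair (correlations -0.12, -0.005 and -0.037 for WX-02-23 and DMSO, 0.136, 0.022 and 0.077 for WX-02-43 and DMSO, and -0.098, -0.031 and -0.027 for the compounds), so the numbers were not used as pairs.

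With a library left out, fewer libraries must meet each criterion, so a count can only stay or grow, over all regions too. The ranges with WX-02-23 against the vehicle were 1 to 2 gained, 1 to 3 lost, 3 to 9 higher (over 1.5 times without each of the 6 libraries) and 5 to 9 lower (without any WX-02-23 library or DMSO replicate 3). Gained reached 2 without WX-02-23 replicate 3, while lost members numbered 2 if WX-02-23 replicate 1 was omitted and 3 if DMSO replicate 1 was. The ranges with WX-02-43 against the vehicle were 0 to 0 gained, 1 to 3 lost (2 without WX-02-43 replicate 3 or DMSO replicate 2, 3 without DMSO replicate 1), 5 to 17 higher (10 without WX-02-43 replicate 2 or 3, 17 without DMSO replicate 1) and 5 to 11 lower (11 without WX-02-43 replicate 1). Between the compounds the ranges were 1 to 3 gained (3 without WX-02-23 replicate 3, 2 without WX-02-43 replicate 1 or 3), 0 to 0 lost, 3 to 6 higher (5 without WX-02-23 replicate 1 or 3, 6 without WX-02-43 replicate 1) and 6 to 14 lower (14 without WX-02-23 replicate 2, 10 without WX-02-43 replicate 3). The shares of all regions over the same omissions, in the order gained, lost, higher and lower, were 1.96% to 3.21%, 0.913% to 1.82%, 11% to 14.4%, then 12.6% to 14.9%, with WX-02-23 against the vehicle. For WX-02-43 against DMSO they were 0.426% to 1.40%, 0.504% to 1.42%, 10.5% to 16.9% and 9.27% to 10.6%. Between the compounds they were 1.68% to 2.77%, 1.01% to 1.92%, 11.8% to 13.4% and 14.1% to 17.6%.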
